A study of Mus musculus with 4 samples.

Results

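The scar margin ring is the single layer of Visium spots that touches collagen-rich tissue in livers of mice given carbon tetrachloride (CCl4), and it was compared with parenchyma further away on the same section. A Visium spot is a small region that can hold several cells of different types, so every level below is that of a region and not of a cell type. In each section, the 10 percent of spots with the largest share of Col1a1, Col1a2 and Col3a1 among all UMIs (unique molecular identifiers, each standing for 1 captured transcript) were called collagen-high and were not used. Ring spots lay at distance 1 on the hexagonal array, next to a collagen-high spot, and distant spots lay at distance 4 or more. The ring held 2658 spots and the distant parenchyma 2515, of 10576 spots on the 3 CCl4 sections and 13640 in the series. The Hk2-deleted section had 792 ring and 1376 distant spots, fibrotic replicate 1 had 1184 and 707, and fibrotic replicate 2 had 682 and 432. In the healthy section the same rule gave 1000 ring and 383 distant spots.

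The sections were formalin-fixed, paraffin-embedded livers, 1 section per sample. The CCl4-treated PDGFRBcreERT2/Hk2fl/fl mouse gave the Hk2-deleted section (n = 1); in this line tamoxifen turns on Cre wherever the Pdgfrb promoter is active, chiefly in hepatic stellate cells and other perivascular cells. The fibrotic sections (n = 2) and the healthy section (n = 1) came from HK2fl/fl mice without that Cre. All 4 samples were labelled male and 5 months old, and the protocol given for all of them lists tamoxifen (75 mg/kg a day on 5 days, then 2 weeks of waiting). The CCl4 dose was 1 µL/g, given 2 times a week for 6 weeks in the design text and for 4 or 6 weeks in the treatment protocol, and the healthy sample had olive oil instead. Each section was taken as 1 replicate. The labels number no mice, and p-values measure only the spread between these sections, largely pooled over genes. In the ring comparison each gene had 2 residual degrees of freedom of its own and 13.0 borrowed from all genes. The Hk2-deleted section differs from the fibrotic ones in genotype, and the fibrotic sections differ from each other in Y-linked transcripts (below).

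Scars in the CCl4 liver form where hepatocytes around the central vein die again and again. Stellate cells there turn into matrix-producing, contractile cells, monocytes and neutrophils enter, and resident macrophages change. Hepatocytes keep different programmes along the lobule, with xenobiotic metabolism and ammonia scavenging near the central vein, and gluconeogenesis, urea synthesis and amino acid breakdown near the portal tract.

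The geometry of the ring differed between sections. Collagen-high spots numbered 386 in the Hk2-deleted section, 413 in fibrotic replicate 1 and 258 in fibrotic replicate 2, and 60, 119 and 53 of them had no collagen-high neighbour. The collagen share at the threshold was 0.174328% just inside and 0.174265% just outside in the Hk2-deleted section, 0.269742% and 0.269293% in fibrotic replicate 1, and 0.142356% and 0.141889% in fibrotic replicate 2. Spots on or beside the liver surface, defined by a missing neighbour or by a UMI of the mesothelial genes Msln or Upk3b in the spot or next to it, made up 54.5% of ring and 25.9% of distant spots in the Hk2-deleted section, 49.7% and 29.6% in fibrotic replicate 1, and 12.9% and 19.7% in fibrotic replicate 2. They were also 73.8%, 64.9% and 24.4% of the collagen-high spots in these sections, and the ring thus borders the liver surface as well as scars inside it. Spots with a missing neighbour alone were 24.4%, 33.7% and 23.6% of the collagen-high spots. The low surface share of fibrotic replicate 2 thus comes chiefly from the Msln and Upk3b part of the definition. Ring spots were more often pericentral by their genes: 41.3%, 42.4% and 48.7% of them fell into the most pericentral 1 of 3 equal parts of their section by hepatocyte zonation genes, against 27.4%, 22.5% and 15.7% of distant spots. Median UMIs per spot were 13250 in ring and 18565 in distant spots of the Hk2-deleted section, 16111 and 15335 in fibrotic replicate 1, and 13051 and 14558 in fibrotic replicate 2.

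**Figure D1:**
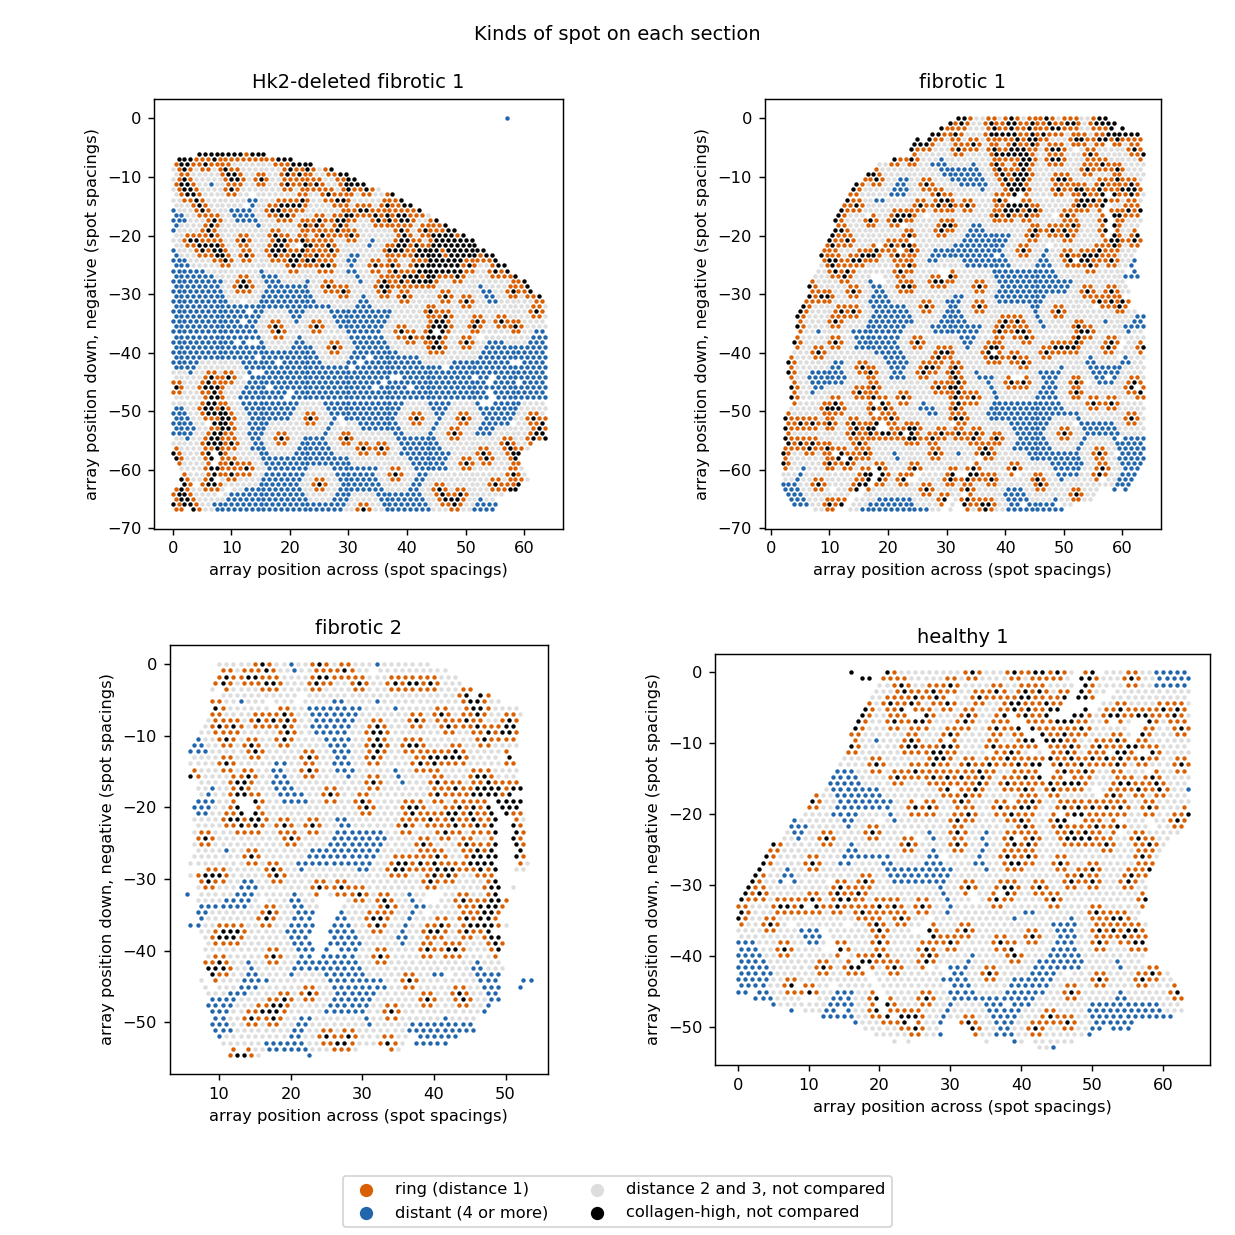
Maps of the 4 sections, with array position in spot spacings on both axes. Orange points are ring spots, blue points distant spots, black points collagen-high spots and grey points the spots at distance 2 and 3. In each section, some collagen-high spots lie at the tissue edge and others inside it.

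Section totals ran from 40585039 to 67479047 UMIs. Hepatocyte markers were high in every section, with Alb between 68850 and 135180 CPM (UMIs scaled to a common section total). Hk2, the targeted gene, was at 3.50 CPM in the Hk2-deleted section, 4.88 and 3.94 CPM in the fibrotic sections and 1.85 CPM in the healthy section. Whether its probes lie in the deleted part is not given in the sources used here, and cells without active Cre are counted too. Fibrotic replicate 1 went against its male label, with the Y-linked transcripts Eif2s3y at 0.578 CPM and Ddx3y at 0.415 CPM, against 62.1 to 69.9 CPM and 47.0 to 52.4 CPM in the other sections. Results of the ring comparison are therefore also given without it where the call of a named gene changes. Sections shared 1710 of 4848 spot barcodes, which name array positions and not cells.

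Of 12792 genes tested on UMIs summed per section and spot kind, with section as a block, 718 were higher (5.61%) and 656 lower (5.13%) in the ring at an adjusted p under 0.05 by edgeR's quasi-likelihood test with Benjamini-Hochberg adjustment. Without fibrotic replicate 1 the counts were 721 (5.75%) and 453 (3.61%) of 12541, and DESeq2 called 209 (1.63%) and 254 (1.99%). The 3 ring values lay above the 3 distant values for 761 genes (5.95%) and below them for 504 (3.94%). In the sentences below, levels are normalised CPM (CPM after TMM scaling), and 3 values in a row are those of the Hk2-deleted section, fibrotic replicate 1 and fibrotic replicate 2, in this order. Without the TMM scaling the median gene was 0.10 log2 units higher in the ring of the Hk2-deleted section, 0.10 in fibrotic replicate 1 and 0.14 in fibrotic replicate 2, and changes are given relative to that shift. Less RNA per cell and fewer cells of a type cannot be told apart in such sums.

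The collagen genes that chose the spots are given as a description only. Col1a1 was at 216, 338 and 165 normalised CPM in the rings and 84.95, 221 and 89.8 in distant spots. Col1a2 was at 235, 317 and 138 in the rings and 102, 204 and 83.3 in distant spots, and Col3a1 at 423, 656 and 394 in the rings and 239.5, 472 and 251 in distant spots. The ring exceeded the distant spots in each section, while the distant spots of fibrotic replicate 1 held more Col1a1 than the rings of the other 2 sections.

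Matrix genes outside the rule rose in the ring as a group. Of 35 tested genes for other collagens, elastic fibres, proteoglycans and matricellular proteins, 27 were higher and 1 was lower, with a median log2 fold change of 0.58 against -0.01 over all genes. Tnxb, which encodes the matrix glycoprotein tenascin-X, was at 42.9, 49.6 and 33.7 normalised CPM in the rings and 22.4, 27.9 and 19.7 in distant spots. Every ring value lay above every distant value, and its log2 fold change came to 0.86 ± 0.06 (SE, adjusted p = 6.61e-06). Lum (lumican, a proteoglycan that orders collagen fibrils) was at 81.1, 130.2 and 89.03 in the rings and 43.4, 88.8 and 39.9 in distant spots. Each section had more in its ring, although the distant spots of fibrotic replicate 1 held about as much as the rings of the other sections, and its log2 fold change came to 0.82 ± 0.08 (SE, adjusted p = 3.03e-05). Svep1, a large adhesion protein of the matrix, was at 22.9, 26.7 and 17.8 in the rings and 11.4, 17.4 and 8.46 in distant spots, without overlap, a log2 fold change of 0.86 ± 0.09 (SE, adjusted p = 4.52e-05). Ltbp2, which binds elastic microfibrils, and Fmod (fibromodulin) rose by 1.14 and 0.93 on the log2 scale at levels under 14 normalised CPM. Mfap4 passed the test (log2 fold change 0.87 ± 0.16 SE, adjusted p = 0.00207), but fibrotic replicate 2 had 6.31 in its ring and 7.07 in distant spots. The 1 gene that fell, named after its value was seen, was Col18a1 (log2 fold change -0.22 ± 0.05 SE, adjusted p = 0.00733), a basement membrane collagen that hepatocytes also make.

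Enzymes that crosslink or degrade matrix, and their inhibitors, were likewise higher. Of 28 tested, 19 rose and the others did not pass, with a median log2 fold change of 0.54. Loxl1, a lysyl oxidase that crosslinks elastin, was at 16.9, 28.6 and 10.4 normalised CPM in the rings and 6.69, 18.00 and 6.79 in distant spots. All 3 sections were higher in the ring, with overlap because fibrotic replicate 1 was high in both kinds of spot, and its log2 fold change came to 0.90 ± 0.12 (SE, adjusted p = 0.000247). Lox, which crosslinks collagen, had the largest change of the list at very low levels: 1.56, 1.65 and 0.601 in the rings and 0.396, 0.573 and 0 in distant spots, a log2 fold change of 1.88 ± 0.41 (SE, adjusted p = 0.00741). Timp1, the inhibitor of matrix metalloproteinases that marks active fibrosis, was also low, at 2.18, 1.297 and 1.302 in the rings and 0.575, 0.8999 and 0.416 in distant spots, without overlap (log2 fold change 1.38 ± 0.36 SE, adjusted p = 0.0219). Adam12, a metalloprotease of activated stromal cells, rose by 0.97 on the log2 scale.

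Of 20 stellate cell genes tested, 16 rose in the ring and the others did not pass. Their median log2 fold change was 0.50. Tcf21, a transcription factor of stromal cells, was at 20.5, 26.9 and 18.4 normalised CPM in the rings and 11.2, 17.4 and 9.98 in distant spots. Cygb, the haem protein that marks stellate cells, was at 40.4, 40.2 and 27.7 in the rings and 21.9, 25.3 and 21.1 in distant spots. Pdgfra, a receptor for platelet-derived growth factor, was at 30.6, 34.2 and 27.2 in the rings and 17.3, 22.8 and 17.5 in distant spots. In all 3 genes the groups did not overlap, and the log2 fold changes were 0.77 ± 0.08 (SE, adjusted p = 4.45e-05) for Tcf21, 0.71 ± 0.08 (SE, adjusted p = 6.64e-05) for Cygb and 0.69 ± 0.07 (SE, adjusted p = 3.89e-05) for Pdgfra. Pdgfrb, whose promoter drives the Cre, was at 22.9, 33.5 and 24.5 in the rings and 18.6, 20.9 and 16.9 in distant spots, again without overlap (log2 fold change 0.50 ± 0.08 SE, adjusted p = 0.000986).

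Of 12 contractile genes tested, 9 rose, but unevenly between sections. Acta2, smooth muscle actin and the usual sign of activated stellate cells, was at 23.7, 9.17 and 6.01 normalised CPM in the rings and 8.56, 6.299 and 5.96 in distant spots. The Hk2-deleted section was far higher in its ring, fibrotic replicate 2 showed no difference, and the log2 fold change of 1.01 ± 0.18 (SE, adjusted p = 0.00202) rested on the Hk2-deleted section: without it the value was 0.37 (adjusted p = 0.216). Tagln and Myl9, an actin-binding protein and a myosin light chain, had log2 fold changes of 0.55 and 0.56, and both were slightly lower in the ring of fibrotic replicate 2. By DESeq2, 2 of these contractile genes passed.

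Among 20 genes of transforming growth factor beta signalling, 9 rose and the others did not pass, with a median log2 fold change of 0.23. Of the ligands, Tgfb3 rose by 0.92 ± 0.13 (SE, adjusted p = 0.000425) and Tgfb2 by 0.67 ± 0.15 (SE, adjusted p = 0.0109) on the log2 scale. Bambi, a decoy receptor that dampens the pathway, was at 12.99, 15.3 and 14.2 normalised CPM in the rings and 6.76, 12.1 and 7.07 in distant spots, without overlap (log2 fold change 0.70 ± 0.12 SE, adjusted p = 0.00174). Ltbp1, which stores the latent ligand in the matrix, rose by 0.64. Of 11 targets of the mechanosensitive factor YAP, 2 rose: Ccn2 (connective tissue growth factor) by 0.54 ± 0.09 (SE, adjusted p = 0.00158) and the receptor kinase Axl by 0.25 ± 0.05 (SE, adjusted p = 0.00482).

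**Figure D2:**
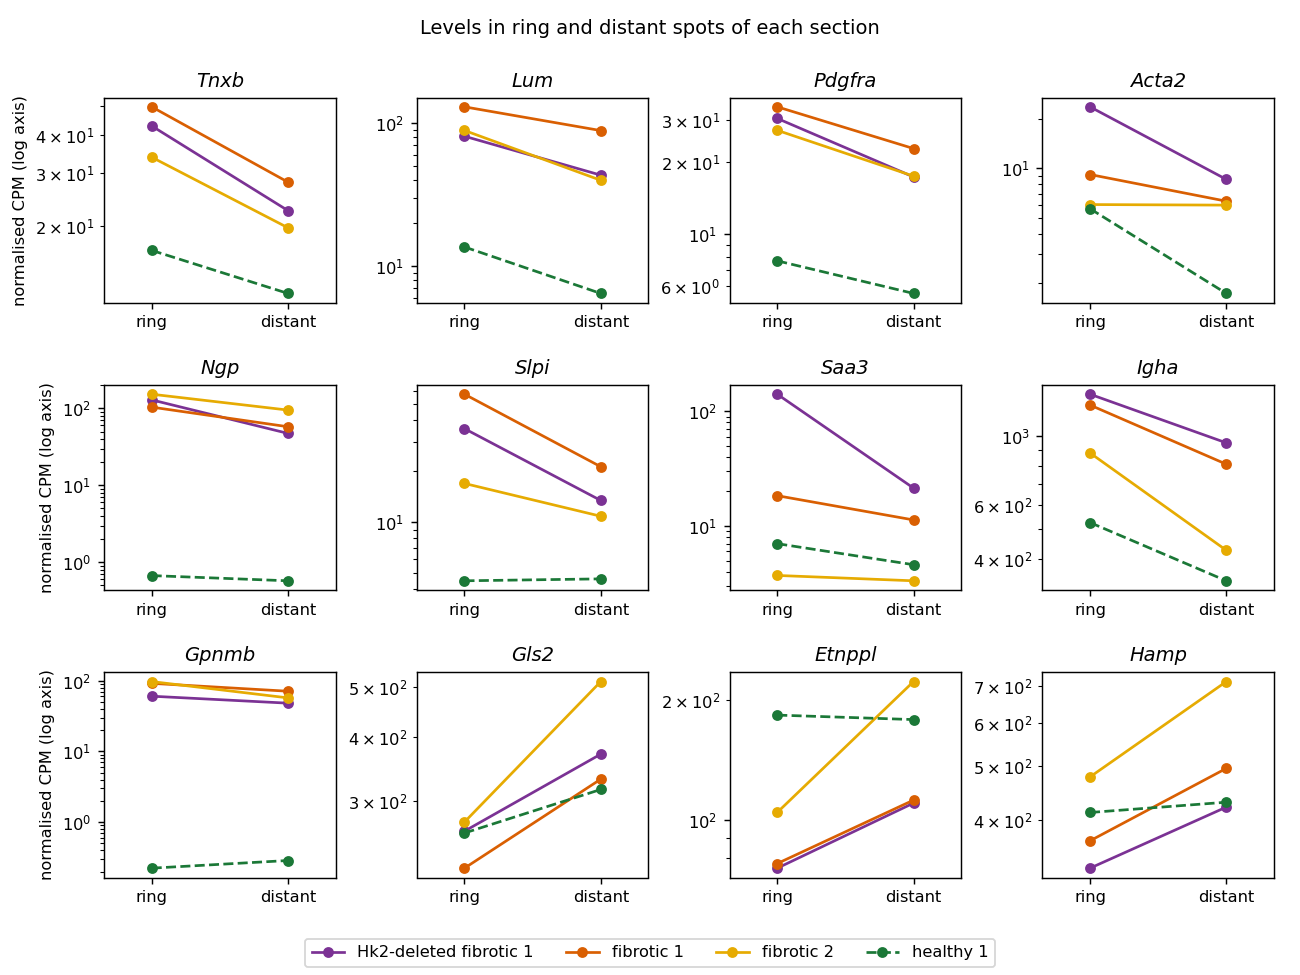
Levels in normalised CPM (log axis) of 12 genes in ring and distant spots, 1 line per section; the dashed line is the healthy section. Matrix and stellate genes slope down towards distant spots in all CCl4 sections, Acta2 is flat in fibrotic replicate 2, and Gls2, Etnppl and Hamp slope up.

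Of 13 neutrophil genes tested, 10 rose, with a median log2 fold change of 0.85; Lcn2, Cxcr2 and Csf3r did not pass. Ngp, Camp and Ltf encode granule proteins of maturing neutrophils. Ngp was at 129, 104 and 153 normalised CPM in the rings and 47.3, 57.7 and 94.96 in distant spots, and Camp at 60.98, 53.6 and 67.6 in the rings and 22.5, 29.9 and 42.4 in distant spots. Both had no overlap, with log2 fold changes of 1.01 ± 0.10 (SE, adjusted p = 3.62e-05) and 1.02 ± 0.11 (SE, adjusted p = 3.62e-05). Ltf (lactoferrin) was at 45.03, 36.2 and 64.99 in the rings and 15.6, 22.6 and 36.9 in distant spots, higher in each ring, with a log2 fold change of 1.03 ± 0.12 (SE, adjusted p = 6.08e-05). S100a8, a calcium-binding alarmin of neutrophils and monocytes, was at 157, 126 and 290.0 in the rings and 68.9, 84.2 and 171 in distant spots (log2 fold change 0.85 ± 0.08 SE, adjusted p = 3.03e-05). Pglyrp1, a bactericidal granule protein, rose by 0.91. These transcripts were concentrated in few spots: the 10 richest ring spots held 74.3, 35.98 and 24.3% of the ring's Ngp UMIs, and the richest spot of the Hk2-deleted section alone held 481 of 1657. The 10 richest distant spots held 17.4, 26.4 and 21.9%. When every spot had equal weight, the Ngp change was 0.55 (adjusted p = 0.233 by limma) and the Camp change 0.13 (adjusted p = 0.963). Such values are differences in the mean log2 of spot CPM plus 1, a scale unlike that of the summed UMIs. They also depend on spot depth and on the share of spots with any UMI. For Camp this share was 16.4, 32.3 and 41.3% of ring and 22.0, 26.3 and 40.5% of distant spots.

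Slpi, a secreted inhibitor of leukocyte proteases, was the second largest increase among genes of at least 10 pooled CPM. It was at 35.8, 57.3 and 16.9 normalised CPM in the rings and 13.4, 21.3 and 10.8 in distant spots, higher in every ring, with a log2 fold change of 1.32 ± 0.10 (SE, adjusted p = 6.61e-06). Its change passed with equal weight per spot as well, at 0.86 (adjusted p = 5e-05 by limma). The largest increase was that of Saa3, an acute phase apolipoprotein made outside hepatocytes too, at 141, 18.4 and 3.71 in the rings and 21.4, 11.3 and 3.33 in distant spots. The Hk2-deleted section carried most of it, while fibrotic replicate 2 had hardly any transcript in either kind of spot. The log2 fold change of 2.15 ± 0.26 (SE, adjusted p = 0.000121) became 1.11 without surface spots and 0.63 without the Hk2-deleted section, and DESeq2 did not call it (adjusted p = 0.607).

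Antibody transcripts rose in the ring. Of 17 B and plasma cell genes tested, 10 were higher and 2 lower, with a median log2 fold change of 0.55, and 0.15 in spots matched on lobule position. Igha, the heavy chain of IgA, was at 1361, 1256 and 880.5 normalised CPM in the rings and 949, 809.9 and 428 in distant spots. Each section was higher in its ring, with overlap because the distant spots of the Hk2-deleted section exceeded the ring of fibrotic replicate 2, and its log2 fold change came to 0.72 ± 0.07 (SE, adjusted p = 3.07e-05). The light chain Iglc1 was at 118, 46.1 and 70.00 in the rings and 42.8, 33.95 and 22.04 in distant spots, without overlap (log2 fold change 1.18 ± 0.14 SE, adjusted p = 9.83e-05). Here too few spots held much of the transcript: the 10 richest ring spots had 54.98, 42.1 and 75.5% of the ring's Iglc1 UMIs, against 15.3, 12.8 and 30.2% for Igha. Iglc1 did not pass with equal weight per spot (0.36, adjusted p = 0.575 by limma). Sdc1 and Xbp1, the 2 that fell (Sdc1 was named after its value was seen), mark plasma cells but are also abundant in hepatocytes, at log2 fold changes of -0.31 and -0.21.

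Macrophage and antigen presentation genes changed less. Of 22 genes of lipid-associated macrophages, the scar-associated type, 10 rose and 2 fell, with a median log2 fold change of 0.20. Gpnmb, a glycoprotein of these cells, was at 60.4, 91.7 and 97.1 normalised CPM in the rings and 48.1, 70.9 and 57.1 in distant spots. Each ring was higher than its own distant spots, the ranges overlapped, and its log2 fold change came to 0.46 ± 0.07 (SE, adjusted p = 0.000453). Trem2, their lipid receptor, and Mmp12, macrophage elastase, rose by 0.46 and 0.45. When ring and distant spots were matched on lobule position, Gpnmb was at 0.12 (adjusted p = 0.259), and 1 of these genes was higher and 1 lower, against 2.93% higher and 2.51% lower among all genes in that fit. Of 15 Kupffer cell genes, which mark the resident macrophages, 3 rose and 2 fell. Marco, a scavenger receptor, was at 73.7, 82.04 and 43.7 in the rings and 87.7, 141 and 67.7 in distant spots, lower in each ring, a log2 fold change of -0.55 ± 0.08 (SE, adjusted p = 0.000453). The haemoglobin scavenger receptor Cd163 fell by 0.33 on the log2 scale, with hardly any difference in fibrotic replicate 2, while the complement genes C1qa, C1qb and C1qc rose by 0.24, 0.22 and 0.20. None of these 3 passed by DESeq2 (adjusted p = 0.0549, 0.0748 and 0.163), in spots matched on lobule position (0.226, 0.402 and 0.354) or in spots matched on depth. The genes lower among the lipid macrophage list were Ctsl (a cathepsin) and Apoe (apolipoprotein E), named after their values were seen and also strong in hepatocytes, at -0.18 and -0.17.

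Of 9 class II antigen presentation genes, 5 rose, among them Cd74, the invariant chain, at 925, 1354 and 881 normalised CPM in the rings and 775, 1109.9 and 579.6 in distant spots (log2 fold change 0.37 ± 0.06 SE, adjusted p = 0.000806). Of 13 monocyte and dendritic cell genes, 3 rose: the integrin Itgam by 0.85 ± 0.14 (SE, adjusted p = 0.00139), Plac8 by 0.43 ± 0.05 (SE, adjusted p = 0.000137) and the chemokine receptor Ccr2 by 0.37 ± 0.07 (SE, adjusted p = 0.00289). Of 18 T and NK cell genes, 0 were called by edgeR and 0 by DESeq2, with 1 higher at an unadjusted p under 0.05 by edgeR and a median of 0.12. Trbc2, a T cell receptor chain, was at 8.63, 10.3 and 7.91 in the rings and 8.16, 10.5 and 5.55 in distant spots (log2 fold change 0.11 ± 0.11 SE, adjusted p = 0.608). Among 24 chemokine genes, 4 rose and 2 fell. Cxcl1, which draws neutrophils and is made by stressed hepatocytes, was at 95.2, 23.7 and 23.3 in the rings and 125, 32.5 and 32.99 in distant spots, lower in each ring (log2 fold change -0.43 ± 0.06 SE, adjusted p = 0.000252). Cxcl5, another neutrophil chemokine, stayed near or under 2 normalised CPM with a log2 fold change of 1.13 ± 0.35 (SE, adjusted p = 0.0492), which missed the threshold without fibrotic replicate 1 (adjusted p = 0.0963). Of 20 interferon-induced genes, 3 rose, among them Ifitm1 (log2 fold change 0.37 ± 0.07 SE, adjusted p = 0.00277).

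Endothelial and duct genes gave fewer calls than matrix genes. Of 16 sinusoidal endothelial genes, 1 fell and the others did not pass: Gpr182, a scavenging chemokine receptor (log2 fold change -0.19 ± 0.06 SE, adjusted p = 0.0362, adjusted p = 0.103 without fibrotic replicate 1). That share was not far from the 5.13% of all genes that were lower. Of 19 genes of larger vessels, 5 rose. Rspo3, the central vein signal that sustains pericentral hepatocytes, was at 30.3, 41.04 and 35.6 normalised CPM in the rings and 23.4, 28.3 and 17.5 in distant spots, without overlap (log2 fold change 0.57 ± 0.09 SE, adjusted p = 0.000594), and Edn1, the constrictor endothelin, rose by 0.87 ± 0.17 (SE, adjusted p = 0.0034). Of 14 cholangiocyte genes, 3 rose; the duct keratin Krt7 was at 15.4, 7.601 and 5.31 in the rings and 6.98, 7.53 and 4.71 in distant spots, a difference seen chiefly in the Hk2-deleted section, and its log2 fold change of 0.63 ± 0.18 (SE, adjusted p = 0.0368) was -0.04 without surface spots. By DESeq2 0 cholangiocyte genes passed, with 1.0 higher at an unadjusted p under 0.05. In spots matched on lobule position, 5 of 15 cholangiocyte genes were higher, with a median of 0.34 against 0.11 with all spots, and 4 of 19 genes of larger vessels were. All 9 tested mesothelial genes rose, with a median of 2.11, at low levels: Msln was at 8.400, 4.87 and 0.2003 in the rings and 1.19, 1.55 and 0 in distant spots. Summed over the list, they reached 43.2, 28.7 and 6.61 normalised CPM in the rings and 9.32, 12.9 and 3.88 in distant spots. Without surface spots, which Msln and Upk3b helped to define, 5 of them could be tested and 1 was higher. Without surface spots 26 of 35 other matrix genes, 15 of 20 stellate genes and 9 of 13 neutrophil genes were higher, against 4.86% higher and 5.65% lower among all genes in that fit.

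Hepatocyte genes of the portal side fell in the ring. Of 12 periportal landmarks, 10 fell, with a median log2 fold change of -0.53, and of 25 other periportal genes 21 fell, with a median of -0.40; the others did not pass. Gls2, the glutaminase that feeds urea synthesis, was at 263, 223 and 274 normalised CPM in the rings and 370.3, 331 and 511 in distant spots. Hal, which breaks down histidine, was at 108, 81.3 and 84.2 in the rings and 153, 122 and 157 in distant spots. Neither gene had overlap between the groups, and the log2 fold changes were -0.66 ± 0.07 (SE, adjusted p = 3.62e-05) and -0.65 ± 0.07 (SE, adjusted p = 3.62e-05). Cyp2f2, the classic periportal cytochrome P450, was at 615, 999 and 1001 in the rings and 881, 1476 and 2009.9 in distant spots, lower in each ring (log2 fold change -0.70 ± 0.08 SE, adjusted p = 4.73e-05). Etnppl, which degrades phosphoethanolamine, was at 75.5, 77.6 and 104 in the rings and 110.2, 112 and 223 in distant spots, without overlap (log2 fold change -0.72 ± 0.09 SE, adjusted p = 8.86e-05). Other large decreases included the serine dehydratase relative Sdsl (-0.73), the steroid hydroxylase Cyp17a1 (-0.70), the urea cycle enzyme Asl (-0.56), the histidine enzyme Amdhd1 (-0.57), the transaminase Got1 (-0.57), the methyltransferase Nnmt (-0.57) and the sulfotransferase Sult5a1 (-0.54). Cyp2b13 passed at -0.57, a call that rested on fibrotic replicate 1, where it was at 28.7 in the ring and 44.4 in distant spots (adjusted p = 0.677 without that section).

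Pericentral genes rose. Of 12 pericentral landmarks, 8 were higher and the others did not pass, with a median of 0.38. Oat, the ornithine transaminase of the innermost hepatocytes, was at 132, 171 and 209 normalised CPM in the rings and 98.3, 119.5 and 124 in distant spots, without overlap (log2 fold change 0.55 ± 0.06 SE, adjusted p = 3.62e-05). Cyp2e1, the enzyme that activates CCl4, was at 3875, 3911 and 4338 in the rings and 3421, 3253 and 2862 in distant spots, without overlap (log2 fold change 0.34 ± 0.06 SE, adjusted p = 0.00239). Axin2, a target of Wnt signalling, rose by 0.48 ± 0.12 (SE, adjusted p = 0.016), and the glutathione transferase Gstm3 by 0.50 ± 0.07 (SE, adjusted p = 0.000409). With ring and distant spots matched on lobule position, 1 of the pericentral landmarks was higher and 1 lower, with a median of -0.08; the matching used these genes. Of the periportal landmarks, also used in the matching, 7 were lower, with a median of -0.19. Of the 25 other periportal genes, which the matching did not use, 16 were lower, with a median of -0.20. Of 19 other pericentral genes, 8 rose with all spots, whereas after matching 1 was lower and the others did not pass. In the same matched spots, 22 of 35 other matrix genes, 13 of 20 stellate genes and 10 of 13 neutrophil genes were higher, against 2.93% of all genes.

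**Figure D3:**
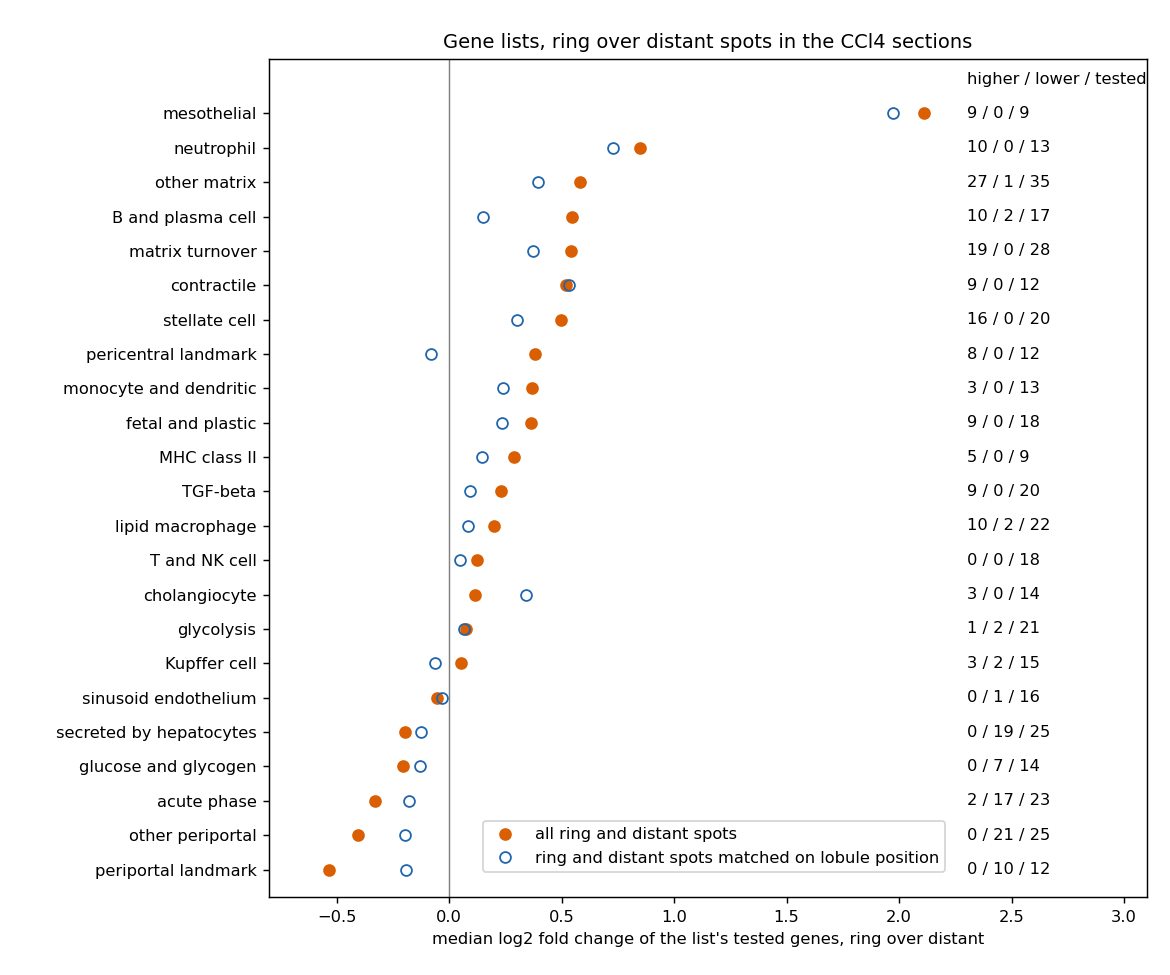
Median log2 fold change, ring over distant, of 23 gene lists (filled points, all spots; open points, spots matched on lobule position). Numbers at the right give genes called higher, called lower and tested with all spots. The neutrophil and matrix medians stay above 0.3 after matching, and the pericentral landmark median is near 0.

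Secreted and acute phase products of hepatocytes were lower in the ring. Of 23 acute phase genes, 17 fell and 2 rose, with a median of -0.33, and of 25 other secreted hepatocyte proteins 19 fell, with a median of -0.19. Without fibrotic replicate 1, 9 of the secreted proteins were lower. Orm3, an acute phase glycoprotein, was at 177, 38.9 and 66.00 normalised CPM in the rings and 239.9, 60.4 and 112 in distant spots. The sections lay far apart, with the Hk2-deleted one highest, and each was lower in its ring (log2 fold change -0.59 ± 0.06 SE, adjusted p = 4.15e-05). Hamp (hepcidin, the hormone that limits iron export) was at 326, 366 and 478 in the rings and 421, 496 and 713 in distant spots (log2 fold change -0.46 ± 0.05 SE, adjusted p = 6.08e-05). The antiprotease Serpina1c was at 2248, 2815 and 4029 in the rings and 2979, 3786 and 5489 in distant spots (log2 fold change -0.43 ± 0.05 SE, adjusted p = 4.34e-05). Alb itself had a log2 fold change of -0.19 ± 0.05 (SE, adjusted p = 0.0137), with an adjusted p of 0.421 without fibrotic replicate 1. Cebpd, an inflammation-induced transcription factor and, with Saa3, 1 of the 2 genes that rose, was at 48.5, 28.8 and 33.5 in the rings and 32.9, 20.9 and 29.3 in distant spots (log2 fold change 0.44 ± 0.07 SE, adjusted p = 0.00123). Metal genes also fell: 5 of 13 were lower, with the metallothionein Mt2 at 2879.5, 593 and 652 in the rings and 3663, 778 and 1253 in distant spots (log2 fold change -0.56 ± 0.09 SE, adjusted p = 0.000746).

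Fuel metabolism followed the portal genes in part. Of 14 genes of gluconeogenesis and glycogen, 7 fell and the others did not pass. Pck1, the entry enzyme of gluconeogenesis, was at 1171, 882 and 1480.4 normalised CPM in the rings and 1443, 1243 and 2646 in distant spots (log2 fold change -0.55 ± 0.08 SE, adjusted p = 0.000359), and Fbp1 fell by 0.44 on the log2 scale without overlap. Of 21 glycolysis genes, 1 rose, the pyruvate kinase Pkm of non-hepatocytes (0.24 ± 0.06 SE, adjusted p = 0.0207), and 2 fell, Pgk1 (-0.25) and Pgam1 (-0.22). Both shares were not far from those of all genes, 5.61% higher and 5.13% lower. Hk2, the enzyme of the first step that the study deleted, was at 4.28, 4.203 and 4.41 in the rings and 2.59, 3.85 and 3.47 in distant spots. Every ring value was above every distant value, but at these low levels the log2 fold change of 0.41 ± 0.18 missed the threshold (adjusted p = 0.172). Hk1 and Hk3 were at 0.25 ± 0.09 (adjusted p = 0.0841) and 0.22 ± 0.08 (adjusted p = 0.112). Of 19 bile acid genes, 5 fell and 1 rose; those that fell include the bile acid ligase Slc27a5 (-0.35 ± 0.05 SE, adjusted p = 0.000438), while the 1 that rose was Cyp7a1, the rate-limiting enzyme of bile acid synthesis (0.18 ± 0.05 SE, adjusted p = 0.0423). Of 21 other cytochrome P450 genes 9 fell and 1 rose (Cyp2c55, 0.29 ± 0.06 SE, adjusted p = 0.00597, named after its value was seen). Of 20 lipid and sterol synthesis genes 3 fell and 1 rose, and of 23 fatty acid oxidation genes 2 rose, a share not far from the 5.61% of all genes. Without surface spots, 1 fatty acid oxidation gene was higher and 6 were lower.

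Genes of fetal or plastic hepatocytes and of growth gave smaller counts. Of 18 such fetal and plasticity genes, 9 rose, with a median log2 fold change of 0.36. S100a6, a calcium-binding protein of regenerating and stromal cells, was at 70.00, 59.6 and 70.3 normalised CPM in the rings and 38.02, 42.5 and 36.6 in distant spots, without overlap (log2 fold change 0.75 ± 0.07 SE, adjusted p = 3.07e-05). The oncofetal proteoglycan Gpc3 rose by 0.93 ± 0.18 (SE, adjusted p = 0.00325). Of 23 proliferation genes, 2 rose, the cycling marker Mki67 (0.41 ± 0.08 SE, adjusted p = 0.00521) and the mitotic kinase Cdk1 (0.41 ± 0.09 SE, adjusted p = 0.0118), and 1 fell, the thymidine kinase Tk1 (-0.33 ± 0.05 SE, adjusted p = 0.000702). The p53 target Phlda3 was the 1 of 20 that passed, rising by 0.61 ± 0.12 (SE, adjusted p = 0.00295). For the proliferation and p53 lists, these shares were not far from the 5.61% higher and 5.13% lower of all genes. Of 18 vesicle genes 1 rose, the tetraspanin Cd63 (0.44 ± 0.10 SE, adjusted p = 0.00965), a share like that of all genes. Of 13 hypoxia genes 2 rose, Adm (0.56) and Ndrg1 (0.51), and 1 fell, Bnip3 (-0.23). Of 20 endoplasmic reticulum stress genes 2 fell, of 11 heat shock genes 1 fell, and of 18 glutathione and Nrf2 genes 2 rose, shares not far from those of all genes.

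Many of the named calls above depended on the method, and some rested on 1 section. The 105 genes named for the ring include Hk1, Hk2, Hk3 and Trbc2, which had not passed. Of the 105, 38 missed the threshold with DESeq2 and 50 with equal weight per spot by limma, where 3 others changed sign. In spots matched on lobule position 24 missed it and 2 others, Cyp2c55 and Trbc2, changed sign. By DESeq2, 3 of 9 mesothelial and 5 of 17 B and plasma cell genes were higher, and 0 of 24 chemokine and 0 of 23 proliferation genes. Without fibrotic replicate 1, Cyp7a1, Adm, Bnip3, Ctsl and Apoe also missed the threshold, at adjusted p-values of 0.0629 to 0.307 by edgeR. Without the Hk2-deleted section, Timp1 was at 0.84 (adjusted p = 0.311), and Tagln, Myl9, Tgfb2, Cd63, Cd163, Gpr182, Krt7, Xbp1, Cdk1, Pgam1, Adm, Ndrg1, Bnip3, Col18a1, Ctsl and Apoe missed it too, at 0.0568 to 0.91. Without fibrotic replicate 2, Cyp7a1, Adm and C1qc did, at 0.0779 to 0.0909. Without surface spots, Lox and Timp1 missed it (adjusted p = 0.077 and 0.146), as did Tgfb2, Gpr182, Pkm, Adm, Ndrg1 and Cyp2b13, at 0.0594 to 0.133.

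Median differences were smaller at distance 2 and 3 than at distance 1. Over the genes called higher, the median log2 level relative to distant spots was 0.50, 0.36 and 0.53 at distance 1, 0.21, 0.17 and 0.23 at distance 2, and 0.13, 0.07 and 0.17 at distance 3. Over the genes called lower it was -0.23, -0.20 and -0.29 at distance 1, -0.09, -0.08 and -0.14 at distance 2, and -0.04, -0.01 and -0.10 at distance 3. These genes were chosen on distance 1 against distance 4 or more, and every median uses the same distant spots, so all of them are a description. Gene by gene the order was less regular: of 96 higher genes that the naming rule admits, 10 were in distance order in all 3 sections, 32 in 2, 33 in 1 and 21 in none, and of 48 such lower genes, 13 were in order in all 3. Lum was at 81.1, 61.5, 56.2 and 43.4 normalised CPM at distance 1, 2, 3 and 4 or more in the Hk2-deleted section and at 89.03, 60.4, 45.05 and 39.9 in fibrotic replicate 2, a steady decline. Gls2 rose outward, at 263, 339, 349.6 and 370.3 in the Hk2-deleted section and 274, 395, 439.8 and 511 in fibrotic replicate 2. Saa3 in the Hk2-deleted section declined outward, at 141, 99.3, 56.7 and 21.4. Ngp had no such order: it was at 129, 32.1, 25.6 and 47.3 in the Hk2-deleted section, 104, 80.2, 49.9 and 57.7 in fibrotic replicate 1 and 153, 129, 177 and 94.96 in fibrotic replicate 2, where distance 3 exceeded the ring. With spots at distance 2 in place of the ring, 124 genes were higher and 117 lower.

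Ring spots differed among themselves by how many collagen-high neighbours they had. Most touched 1: 508 of 792 ring spots in the Hk2-deleted section, 831 of 1184 in fibrotic replicate 1 and 477 of 682 in fibrotic replicate 2. Lum was at 77.4, 84.7 and 92.6 normalised CPM in ring spots with 1, 2 and 3 or more such neighbours in the Hk2-deleted section, 125, 139 and 156 in fibrotic replicate 1 and 82.3, 96.05 and 127 in fibrotic replicate 2. Gls2 ran the other way in each section, at 278, 245 and 229, then 236, 198 and 194, then 308, 214 and 125. The healthy section had the same order of both genes without CCl4, with Lum at 12.2, 15.3 and 26.9 and Gls2 at 271, 238 and 184. There, only 57 spots had 3 or more such neighbours and the whole ring held 183 Lum UMIs, so its Lum values rest on few UMIs. Ngp did not follow the neighbour count, at 156, 104 and 54.00, then 97.7, 135 and 69.4, then 152, 160.4 and 138. Iglc1 in fibrotic replicate 2 was at 22.96, 122 and 337, where 1 ring spot held 268 of 699 UMIs.

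**Figure D4:**
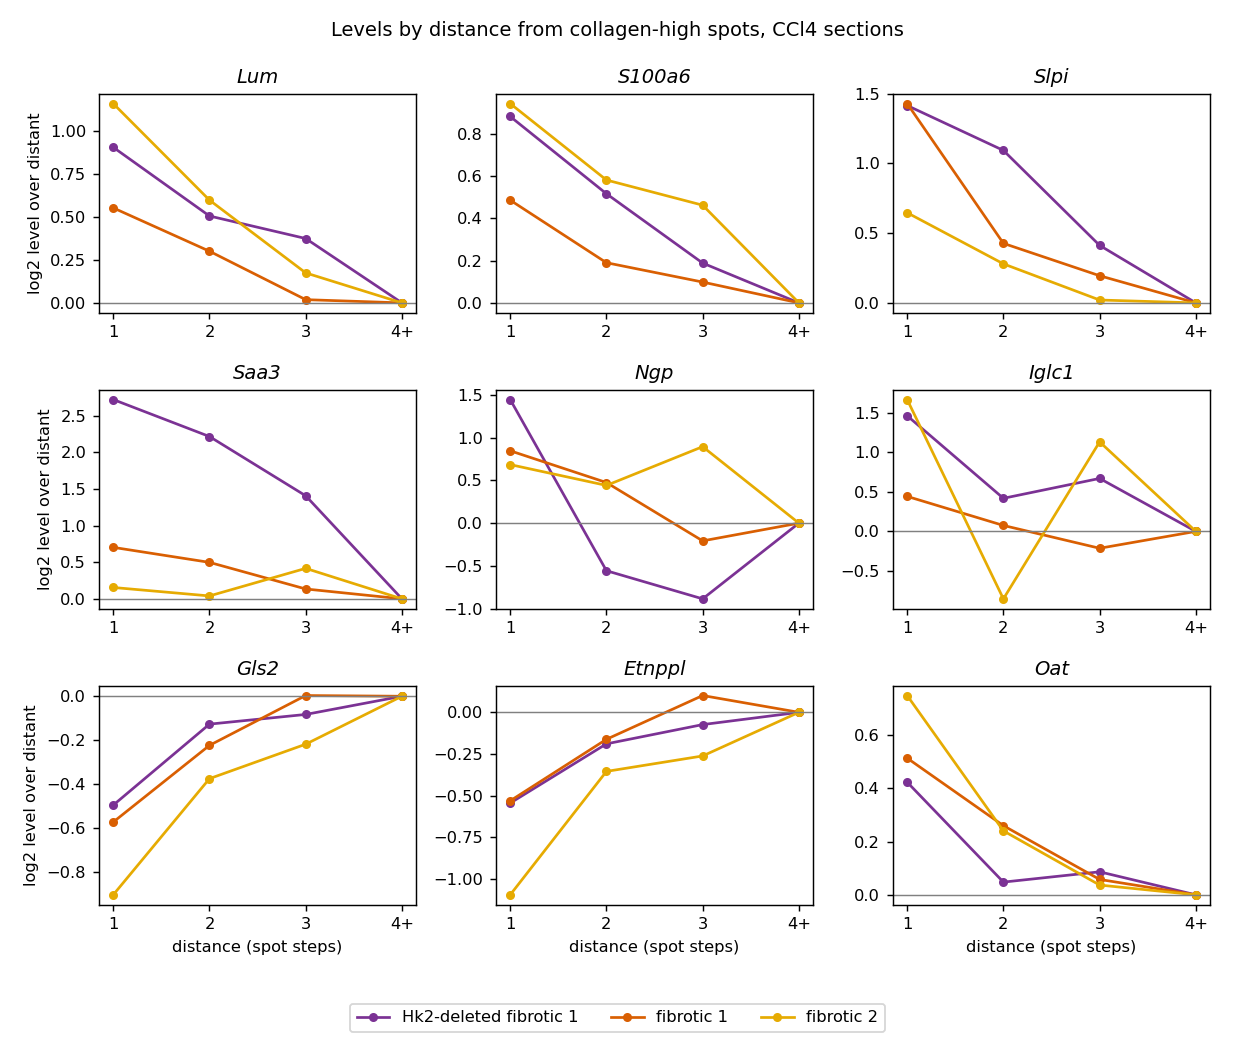
Log2 of normalised CPM relative to distant spots at distance 1, 2, 3 and 4 or more from the nearest collagen-high spot, 1 line per CCl4 section. Lum, S100a6 and Slpi decline outward at every step in the sections shown. Gls2 and Etnppl climb, except between distance 3 and 4 or more in fibrotic replicate 1, while Ngp and Iglc1 have no steady order.

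Whether the ring difference itself differed with Hk2 deletion was tested as a spot kind by genotype term, the Hk2-deleted section (n = 1) against both fibrotic sections (n = 2). This fit had 1 residual degree of freedom and assumed that the lone section varies like the fibrotic ones. The spread was pooled over genes without limit, so a gene's own spread between the fibrotic sections plays no part in its p-value. Distant spots reached up to distance 21 in the Hk2-deleted section and up to 8 in each fibrotic section, and the rule collagens, given as a description, had a median term of 0.55. The sections also differed in surface spots, which were 54.5, 49.7 and 12.9% of ring spots and 25.9, 29.6 and 19.7% of distant spots. The 9 tested mesothelial genes had a median term of 1.41, against 0.02 over all genes. Of 12792 genes, 24 had a larger ring difference in the Hk2-deleted section (0.188%) and 5 a smaller one (0.0391%), and DESeq2 called 1 and 0, with 12 and 3 at an unadjusted p under 0.05. The call that DESeq2 shared was Saa3. Saa3 had the largest such term among genes of at least 10 pooled CPM, 2.11 ± 0.19 (SE, adjusted p = 1.27e-25), with log2 ratios of ring over distant of 2.72 in the Hk2-deleted section and 0.70 and 0.16 in the fibrotic sections. Acta2 followed at 1.12 ± 0.24 (adjusted p = 0.00179), where the log2 ratio was 1.47 with Hk2 deleted and 0.54 and 0.01 in the fibrotic sections. In the healthy section, which this term does not use, the Acta2 log2 ratio was 1.72. Mgp, a matrix protein that blocks calcification, had 1.03 ± 0.15 (adjusted p = 7.69e-09), the prostacyclin synthase Ptgis 0.67 ± 0.16 (adjusted p = 0.0175) and the growth arrest gene Gas1 0.71 ± 0.18 (adjusted p = 0.033). None of the other matrix, matrix turnover or stellate genes was called for this term by edgeR or DESeq2, with medians of 0.16, 0.23 and 0.05 against 0.02 over all genes. At an unadjusted p under 0.05 by edgeR, 7, 7 and 1 of them were more positive. Of the contractile genes 3 were called.

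Neutrophil genes split in this term. The granule genes Ltf, Ngp and Camp had larger ring differences in the Hk2-deleted section, by 0.80 ± 0.15, 0.70 ± 0.12 and 0.70 ± 0.14 (SE, adjusted p = 0.00011, 3.53e-05 and 0.000532). In that section the 10 richest ring spots held 70.98%, 74.3% and 76.4% of the ring's UMIs of these genes. With the top 20 percent of spots as collagen-high, the Ngp and Camp terms were -0.33 and -0.14. The 5 genes with a smaller ring difference in the Hk2-deleted section, of which all but Ighg2c were named after their values were seen, were Ctsg, Prtn3 and Mpo, proteases and a peroxidase of early neutrophil granules, and the antibody genes Ighg2c and Igkv12-89. Prtn3 was at 6.69 normalised CPM in the ring and 5.36 in distant spots of the Hk2-deleted section. In the fibrotic sections it was at 9.61 and 7.01 in the rings and 2.04 and 1.94 in distant spots. The terms were -1.76 ± 0.33 for Prtn3 (adjusted p = 0.000124), -2.17 ± 0.37 for Ctsg (adjusted p = 1.19e-05) and -1.54 ± 0.38 for Mpo (adjusted p = 0.0218). In distant spots of fibrotic replicate 2, Ctsg and Mpo had only 6 and 12 UMIs. Ighg2c was at -1.47 ± 0.15 and turned to 0.94 with the top 20 percent as collagen-high. The 10 richest ring spots held 64.3, 24.8 and 56.4% of the ring's Ighg2c UMIs, and the 10 richest distant spots 55.0, 16.3 and 35.6%. In the ring of fibrotic replicate 2, 1 spot had 178 of 548. Of the Igkv12-89 UMIs in the ring of fibrotic replicate 2, 47 of 49 lay in 1 spot.

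The healthy section gives the background of the same geometry without CCl4. Of its collagen-high spots, 47.4% were surface spots. Median UMIs per spot were 13640 in its ring and 19285 in its distant spots. Its collagen-high threshold was a share of 0.0167%, well under those of the CCl4 sections, and 50.8% of its ring spots and 53.8% of its distant spots held no UMI of the 3 genes. A spot kind by treatment term set the 3 CCl4 sections against it (2 residual degrees of freedom, with 23.0 more borrowed from all genes). The healthy arm is 1 section with no spread of its own, assumed to vary like the CCl4 sections. Of 12818 genes, 96 had a more positive ring difference under CCl4 (0.749%) and 85 a more negative one (0.663%); these counts were 444 and 346 without fibrotic replicate 2. None of the other matrix, matrix turnover, stellate or neutrophil genes was called by edgeR or DESeq2 for this term, with medians of -0.23, -0.02, -0.07 and 0.72. At an unadjusted p under 0.05 by edgeR, 0, 2, 0 and 2 of them were more positive, and 2, 1, 1 and 1 more negative. Tnxb was at 16.6 normalised CPM in the healthy ring and 11.9 in healthy distant spots, Lum at 13.7 and 6.46, Ngp at 0.671 and 0.575, and Gpnmb at 0.224 and 0.287. The healthy section had only 9 Ngp UMIs in its ring and 4 in distant spots, 3 and 0 of Ltf, and 2 and 0 of Camp. For these neutrophil genes the term cannot decide whether the ring difference changed, because the healthy side is nearly empty. S100a8 had 87 and 44 UMIs there.

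Zonation genes did differ in this term. The ring was richer in Oat under CCl4, while in the healthy section Oat was at 984 normalised CPM in the ring and 1431 in distant spots. The term was 1.08 ± 0.11 (SE, adjusted p = 1.16e-06). Gstm3 had 0.94 ± 0.15 (adjusted p = 0.00114), the ascorbate pathway gene Gulo 0.84 ± 0.11 (adjusted p = 5.44e-05) and the quinone reductase Nqo1 0.91 ± 0.21 (adjusted p = 0.022). In all, 5 of 12 pericentral landmarks, 7 of 20 other pericentral, 7 of 23 fatty acid oxidation and 6 of 18 glutathione and Nrf2 genes were more positive under CCl4, and 4 of 12 periportal landmarks more negative. Of healthy ring spots 34.5% fell into the most pericentral of the 3 parts, and of healthy distant spots 38.6%. With the lobule part as a block, all 16 genes named for this term kept their sign. That fit takes the 3 parts of each section, the healthy one too, as separate blocks. Its calls therefore count parts of 1 section as replicates, which they are not. In spots matched on lobule position all 16 kept their sign too, although Ifi27l2b and Tgds missed the threshold. Most of the 16 missed it with DESeq2, with the top 5 percent and with the top 20 percent of spots as collagen-high. Some missed it without surface spots and in spots matched on depth. Of the genes named for this term, the haemoglobin genes Hba-a2 and Hbb-bs had the most positive values. Hba-a2 was at 143, 329 and 118 in the CCl4 rings and 100.3, 204 and 108 in their distant spots, but at 79.2 in the healthy ring and 187 in healthy distant spots (term 1.70 ± 0.14, adjusted p = 1.06e-07). Hbb-bs, Hbb-bt and Ifi27l2b, the last an interferon-family gene, had terms of 1.55 ± 0.15, 1.06 ± 0.22 and 1.09 ± 0.27.

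More negative ring differences under CCl4 were found among endothelial and Kupffer cell genes. Of 16 sinusoidal endothelial genes, 7 were called in that direction, as were 3 of 15 Kupffer cell genes. Summed over the list, the sinusoidal genes were at 1300.3, 1409 and 1577 normalised CPM in the CCl4 rings and 1439.6, 1509 and 1456 in their distant spots, but 1734 in the healthy ring and 1293 in healthy distant spots. Marco was at 27.3 in the healthy ring and 19.8 in healthy distant spots, opposite to the CCl4 sections (term -1.02 ± 0.20, adjusted p = 0.00857). Spp1 (osteopontin, made by duct cells and scar macrophages) was at 212, 239 and 222 in the CCl4 rings and 206, 253 and 227 in their distant spots, close to equal, but at 100.2 in the healthy ring and 57.7 in healthy distant spots (term -0.83 ± 0.12, adjusted p = 0.000215). Galnt15 and Ntn4, a glycosyltransferase and a netrin, had -1.26 ± 0.26 and -1.07 ± 0.18, Adam23, Adgre4 and Cd55 had -1.01 ± 0.17, -0.95 ± 0.23 and -0.85 ± 0.15, and Tgds had -0.81 ± 0.19.

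**Figure D5:**
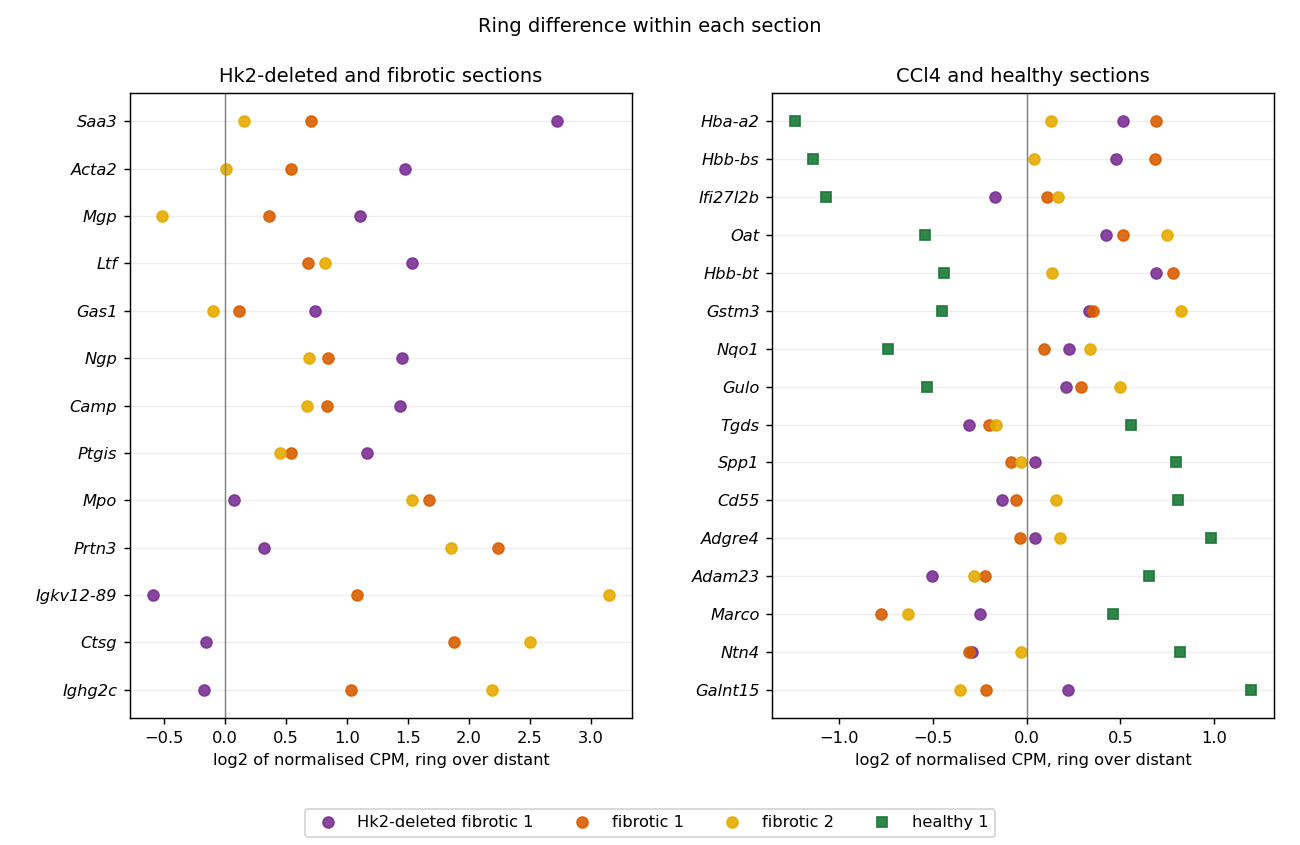
Log2 of normalised CPM, ring over distant, within each section for the genes named for the Hk2 deletion term (left) and the CCl4 term (right); circles are CCl4 sections and squares the healthy section. Apart from Ctsg, Prtn3, Mpo and Igkv12-89, genes were chosen with the Hk2-deleted section outside the range of the fibrotic sections (left) or the healthy section outside that of the CCl4 sections (right), so that separation is no finding.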

How the data were processed

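Spatial transcriptomes of 4 mouse liver sections were measured on Visium arrays. UMI counts per gene and spot were made with Space Ranger 2.0.0 per the file headers and the submitters' processing notes, on genome mm10; the deposited counts are not normalised. No source used here names the probe set or further settings. Section totals ran from 40585039 to 67479047 UMIs, which limits precision for genes of a few CPM.

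Distances were counted in steps on the hexagonal array. UMIs were summed per section and spot kind and fitted with edgeR 4.0.16 (R 4.3.3; quasi-likelihood test, TMM scaling, default filter on low counts, section as block). The replicate is the section, and the block joins ring and distant spots of 1 section. Spots are not replicates. In the alternative with the lobule part as block, each of the 3 parts of a section was its own block, so parts of 1 section were counted as replicates. Spot kind by genotype and by treatment terms tested whether ring differences differed between sections. Benjamini-Hochberg adjustment ran over all tested genes, and the 3 collagen genes of the rule were left out of counts. Alternatives used DESeq2 1.42.0, limma 3.58.1 (each spot with equal weight, pseudocount 1), other thresholds and spot sets. Doublet calling does not apply to spots. Simulated counts were drawn from the kind of model that was then fitted, with the fitted trend of dispersion. They gave no gene a spread of its own around that trend and every section the same mean share of each gene. The rates therefore need not hold for the real counts. Changed genes were drawn from those above a minimum mean count, so the rates do not cover the genes with fewest counts or changes under 1 log2 unit. Over 12795 genes, the ring fit recovered 94% of genes changed by 1 log2 unit and 100% at 2 log2 units, with 9 false calls. The genotype term recovered 71% and 99% with 11 false calls, and the treatment term, over 12821 genes, 78% and 97% with 15.

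Members and gene lists (42) were chosen with earlier results of these data known. Named genes were the 12 largest increases and 12 largest decreases at 10 or more pooled CPM with 1 sign in 3 sections, other than rule genes and lobule landmarks, up to 4 called members per list by size (the 2 most abundant where none was called), the 8 largest each way for each term among genes whose lone section lay outside the range of the others, and a few preset genes such as the hexokinases; exceptions are marked, and not every gene the rule admits is named. Matching on lobule position and on spot depth was added after seeing the data.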

Additional observations from a re-analysis of the deposited data

Results flagged for a closer look

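The results below differed between sections by a test of the difference itself, a spot kind by genotype or spot kind by treatment term in edgeR's quasi-likelihood fit, in log2 units.

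For Hk2 deletion, 24 genes had a larger and 5 a smaller ring difference in the single Hk2-deleted section than in both fibrotic sections. The larger ones included Saa3 (2.11), Acta2 (1.12), Mgp (1.03), Ltf (0.80), Gas1 (0.71), Ngp (0.70), Camp (0.70) and Ptgis (0.67). The smaller ones were Ctsg (-2.17), Igkv12-89 (-2.09), Prtn3 (-1.76), Mpo (-1.54) and Ighg2c (-1.47). Genotype and section cannot be told apart with 1 Hk2-deleted section.

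For CCl4, 96 genes had a more positive and 85 a more negative ring difference in the 3 CCl4 sections than in the single healthy section. The positive ones included Hba-a2 (1.70), Hbb-bs (1.55), Ifi27l2b (1.09), Oat (1.08), Hbb-bt (1.06), Gstm3 (0.94), Nqo1 (0.91) and Gulo (0.84). The negative ones included Galnt15 (-1.26), Ntn4 (-1.07), Marco (-1.02), Adam23 (-1.01), Adgre4 (-0.95), Cd55 (-0.85), Spp1 (-0.83) and Tgds (-0.81). Treatment and section cannot be told apart with 1 healthy section.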

How the results depend on the processing

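The ring comparison, 718 genes higher and 656 lower, gave 209 and 254 with DESeq2, 191 and 61 with equal weight per spot, 124 and 117 with spots at distance 2 in place of 1, 293 and 271 with distance taken from clustered collagen-high spots, and 374 and 320 in spots matched on lobule position. With the top 20 percent of spots as collagen-high 468 were higher, and with the top 5 percent 993 were lower. Leaving out 1 section gave 527 to 721 higher and 437 to 704 lower, with the lowest counts without the Hk2-deleted section. With no replicate block, 0 genes were higher and 0 lower by edgeR, with 585 and 161 at an unadjusted p under 0.05; the section block pairs ring and distant spots of 1 section.

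The genotype term, 24 larger and 5 smaller, gave 14 larger with no filter on low counts, 1 and 0 with DESeq2, 56 and 2 with the top 5 percent, 4 and 2 with the top 20 percent, 15 and 2 without surface spots, 9 larger with the lobule part as block and 9 smaller in spots matched on depth. Most genes named for the genotype term missed the threshold or turned with the top 20 percent. Some missed it without surface spots, with the lobule part as block, and in spots matched on lobule position or depth. Without 1 fibrotic section the genotype term has no residual degrees of freedom and no test. The CCl4 term, 96 more positive and 85 more negative, gave 181 and 168 with no filter, 24 and 13 with DESeq2, 19 and 14 with the top 5 percent, 9 and 3 with the top 20 percent and 464 and 249 with the lobule part as block. It gave 44 more positive without surface spots, 198 more positive in lobule-matched spots and 46 more negative with DESeq2's size factors, and leaving out 1 CCl4 section gave 78 to 444 and 55 to 346. Counts with the lobule part as block treat the 3 parts of a section as replicates. The causes were not tested.

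Among named genes, the sign of the ring difference turned for Krt7 without surface spots (-0.036), Axin2 at distance 2 (-0.014), Hbb-bt with clustered collagen-high spots (-0.051), Hbb-bs there (-0.22) and with equal weight (-0.15), Ctsl (0.0097) and Apoe (0.030) with equal weight, and Cyp2c55 with the lobule part as block (-0.000217) and in matched spots (-0.026). That of Trbc2, which had not passed, turned under the same settings (-0.016 and -0.022). The genotype terms of Camp (-0.14), Ngp (-0.33) and Ighg2c (0.94) turned with the top 20 percent. No other named gene reversed in the alternatives run. Depth limits genes of a few CPM, such as Hk2, Lox and Timp1.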
